A study of Mus musculus with 33 samples.

Results

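The genes described here encode the voltage-gated and related ion channels of excitable cells and their accessory subunits: potassium channels (symbols that start with Kcn), sodium channels (Scn with a digit and a or b), calcium channels (Cacna, Cacnb, Cacng) and the hyperpolarization-activated cation channels (Hcn). Members were taken by symbol alone, with no measured value used. Of the 15988 genes listed in either of the deposited expression tables, 129 matched, under 126 symbols, because Kcnb2, Kcnh8 and Scn8a are each listed under 2 identifiers whose reads may be split between them. In the table of whole olfactory epithelium 114 were listed and in that of sorted sensory neurons 117, with 102 in both, 12 in the epithelium alone and 15 in the sorted neurons alone. After a filter on low values (0.5 or more in at least 2 columns), 112 and 117 members were kept.

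An olfactory sensory neuron turns an odor into a receptor current through a cyclic nucleotide-gated channel and a chloride channel, and its voltage-gated sodium channels then fire the action potentials that travel to the olfactory bulb. Potassium channels repolarize the cell and set its resting potential, calcium channels feed transmitter release at the axon terminal, and HCN channels carry an inward current on hyperpolarization. Most of these channels are assembled from pore-forming subunits and from accessory subunits that set their kinetics, their trafficking or their sensitivity to calcium.

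All mice were 3 weeks old and were Dnmt3a +/+ (WT), Dnmt3a +/- (Het) or Dnmt3a -/- (KO), the last lacking a de novo DNA methyltransferase. RNA depleted of ribosomal RNA came either from sorted mature olfactory sensory neurons (mOSN; fluorescence-activated sorting), where the authors combined the 2 libraries of each genotype into 1 value, or from the whole main olfactory epithelium (MOE), with 1 library for each genotype and treatment. The MOE donors spent 10 min in a clean cage and then 60 min with paper carrying 80 µL of water or of amyl acetate, acetophenone and octanal in equal parts (odor below). The water and odor animals were in separate cages, so cage and treatment cannot be told apart, and the labels do not say how many animals gave a library. For mOSN the ScriptSeq kit with 200 ng of RNA was used for both WT libraries, the NuGEN kit with 100 ng for both KO libraries and each kit for 1 Het library, so kit and genotype cannot be told apart in mOSN.

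Levels are deposited values on the authors' RPKM scale (reads per gene length and library depth), and they are compared between genes on that per-length scale throughout. The MOE libraries held 9410063 to 17639584 reads recovered from the table, or a median of 222 to 396 reads per gene. Dnmt3a stood at 175, 119.9 and 56.2 in WT, Het and KO mOSN, at 84.4 and 89.0 in WT MOE, 50.3 and 66.6 in Het MOE and 56.1 and 48.3 in KO MOE, lower in both mutant genotypes than in WT, though not near 0 in KO. Which bases the null allele lacks is not given in the sources used here. The sorted cells were high in most markers of their label. The 18 mature neuron markers had a median of 2607 in WT mOSN, with Omp at 16660 but Cyp11a1 at 1.21. In WT MOE 17 were listed, with medians of 732 (water) and 770 (odor). The 9 sustentacular cell markers summed to 353 in WT mOSN against 19284 to 31073 across MOE libraries. Between MOE libraries the summed mature neuron markers ran from 7171 (Het odor) to 32164 (KO odor), and 7 muscle markers summed to 441 in KO odor against 109 to 135 in the other 5 libraries.

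Because Dnmt3a methylates cytosine in CpG, the promoters of a few members are shown with every CpG in capitals. Kcnc4 and Kcna2 had the highest mOSN values among potassium channel pore genes, while Kcnj10 and Kcnd2 were among the members with the lowest mOSN values relative to MOE. Each sequence is the 250 bases before the RefSeq transcript start, 5′ to 3′ on the gene's strand, from RefSeq annotation of GRCm38.p6. Kcnc4 lies at chr3:107458899-107459148 on the minus strand, Kcna2 at chr3:107101317-107101566 on the plus strand, Kcnj10 at chr1:172340960-172341209 on the plus strand and Kcnd2 at chr6:21215096-21215345 on the plus strand.
Kcnc4: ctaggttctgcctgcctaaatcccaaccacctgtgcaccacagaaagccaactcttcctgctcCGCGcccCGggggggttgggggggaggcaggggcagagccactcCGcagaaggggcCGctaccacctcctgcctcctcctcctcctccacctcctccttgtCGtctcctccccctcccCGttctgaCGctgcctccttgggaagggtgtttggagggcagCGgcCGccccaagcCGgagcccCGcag
Kcna2: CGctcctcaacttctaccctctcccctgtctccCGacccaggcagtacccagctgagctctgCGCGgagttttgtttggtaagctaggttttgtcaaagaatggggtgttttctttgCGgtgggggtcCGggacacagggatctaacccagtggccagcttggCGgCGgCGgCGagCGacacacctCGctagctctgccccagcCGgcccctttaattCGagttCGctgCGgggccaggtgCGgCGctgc
Kcnj10: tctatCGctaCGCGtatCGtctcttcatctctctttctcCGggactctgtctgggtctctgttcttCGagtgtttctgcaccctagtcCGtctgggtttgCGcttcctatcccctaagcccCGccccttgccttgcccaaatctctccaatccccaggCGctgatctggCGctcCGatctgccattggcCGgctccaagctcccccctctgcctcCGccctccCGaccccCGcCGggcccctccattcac
Kcnd2: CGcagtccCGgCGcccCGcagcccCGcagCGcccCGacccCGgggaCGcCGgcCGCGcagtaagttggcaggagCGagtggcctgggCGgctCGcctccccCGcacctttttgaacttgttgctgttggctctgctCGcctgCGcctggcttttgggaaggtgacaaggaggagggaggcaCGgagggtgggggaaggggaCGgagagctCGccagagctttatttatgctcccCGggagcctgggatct
These windows hold 12, 18, 17 and 22 CpGs in the order Kcnc4, Kcna2, Kcnj10 and Kcnd2, so of these 4 the most highly expressed gene had the fewest. RefSeq promoters were matched for 91 of the 126 symbols, and 68 members had 1 annotated start. Over those 68, the median was 11.5 CpGs in 300 bases (250 before the start and 50 after), against 7 over 22862 genes with 1 start. The median was 20.5 for the 14 members with a mean mOSN value of at least 100, 19.5 for the 24 between 10 and 100, 9 for the 21 under 10 and 5 for the 9 not listed in mOSN. The 22862 genes were not limited to the 15988 listed in mOSN or MOE, and no median by mOSN level was taken over all genes. The medians of the members are therefore not set against genes of like expression. Methylation at these bases was not analysed here.

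Within the sorted neurons a small number of channel genes stood far above the rest. Over the 117 members listed, the median of the mean mOSN value was 16.0, against 34.7 over all genes, and 28 members (23.9%) reached 100 against 25.9% of all genes. Another 40 members had a mean under 10. The 28 were spread over 14 of the 15 channel classes, with at least 1 in every class but the KCNQ channels.

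Among pore-forming subunits of the Shaker, Shab, Shaw and Shal potassium channels (Kv1 to Kv4), Kcnc4, a Shaw channel that inactivates fast, was the highest of all members, with mOSN values of 4355 (WT), 3364 (Het) and 2243 (KO). The Shaker genes Kcna2 and Kcna5 followed, Kcna2 at 919.8, 920.1 and 779.7 and Kcna5 at 773, 761 and 651 in the same order. Kcna6, another Shaker gene, stood at 147, 92.1 and 67.5, the steepest step down among these. A further 12 rows of the class had mean mOSN values of 3.83 to 18.2, with Kcnc2 (2.15, 3.52 and 5.92) and Kcnd3 (2.85, 1.91 and 7.51), pore genes of Shaw and Shal channels, among the lowest.

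Silent subunits, which form no channel alone and join Kv2 pores, were represented by Kcng1 at 331, 344 and 241 and by Kcns3 at 287, 269 and 222. Of the ether-a-go-go class, the ELK channels Kcnh3 (292, 315 and 251) and Kcnh4 (245, 179 and 120.1) were highest. The KCNQ channels, which include the pores of the neuronal M current, were low: Kcnq1, at 36.6, 29.1 and 23.3, had the highest mean of 5. Among accessory subunits of Kv channels, the cytoplasmic Kcnab2 led at 166, 164 and 118, and the calcium-binding Kcnip4 stood at 30.7, 29.9 and 20.6.

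Among calcium-activated potassium channels, both pore and accessory subunits reached high values. Kcnma1, the pore of the BK channel, stood at 124, 135 and 97.6, with its beta subunits Kcnmb3 at 474, 613 and 481, Kcnmb2 at 204, 193 and 147 and Kcnmb4 at 90.7, 102 and 89.6. Kcnmb3 and Kcnmb2 were thus above the pore gene in every mOSN column, and Kcnmb4 below it. Kcnn2, a small-conductance (SK) channel, stood at 174, 161 and 132. The inward rectifier Kcnj2 was at 767, 695 and 478, while every other inward rectifier listed in mOSN was at 29.2 or below. Of the tandem-pore leak channels, Kcnk10 was at 283, 280.0 and 223 and the next, Kcnk12, at 24.2, 38.6 and 55.6.

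Scn9a, the sodium channel pore gene whose loss in humans abolishes smell and pain, was at 701, 548 and 415, and the next pore gene by level was one Scn8a row at 70.3, 106 and 72.6. The beta subunit Scn4b was higher than any pore gene, at 954, 850 and 723, with Scn3b at 252, 265 and 215. Scn2b was at 3.14, 2.20 and 5.65. Among calcium channels the cytoplasmic beta subunit Cacnb3 was highest, at 1154, 1004 and 819, above Cacnb2 at 118, 111 and 80.5. The pores by level were Cacna1d (L type) at 189, 132 and 117, Cacna1h (T type) at 130.1, 104 and 89.2 and Cacna1b (N type) at 103, 84.7 and 73.3, and these 3 lie within 2-fold of each other in each column. The extracellular alpha2delta subunit Cacna2d1 was at 146, 126 and 94.2, and Cacng4, of a family whose members include regulators of AMPA receptors, was at 175, 188 and 172. Of the HCN channels, Hcn4 was at 279, 360.5 and 254, Hcn2 at 156, 163 and 163 and Hcn3 at 3.58, 5.93 and 11.6.

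**Figure D1:**
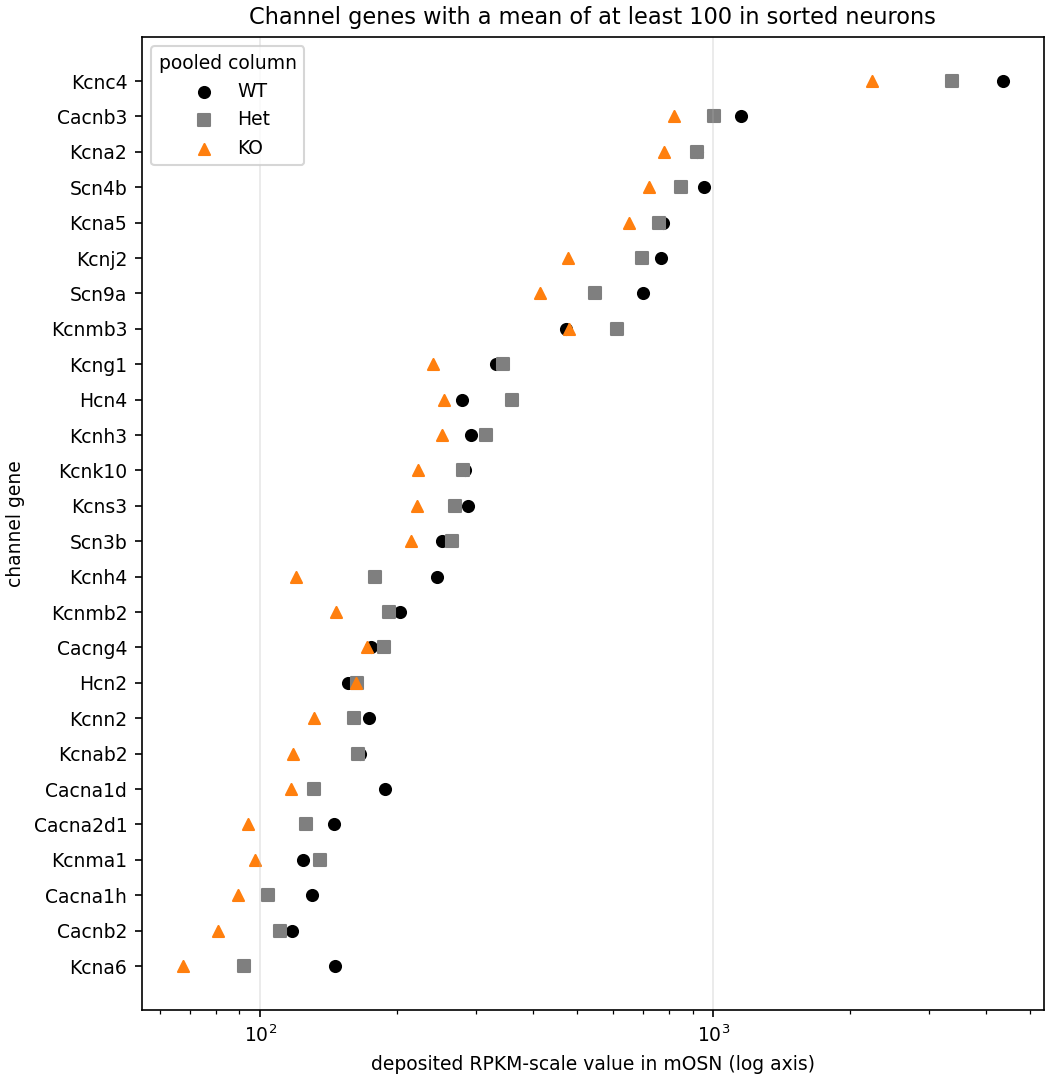
Deposited RPKM-scale values (log axis) of 26 of the 28 channel genes with a mean of at least 100 in sorted neurons, 1 point for each genotype's pooled column. Kcnc4 stands apart at 2243 to 4355, and the KO point is lowest for most genes.

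The comparison of WT mOSN with WT MOE asks which channel genes were enriched in the sorted cells. No test was possible with 1 pooled mOSN value, and the tables were normalized separately, so the log2 ratio of values plus 0.5 was centred on the median of the 13356 genes kept in both tables. Of 100 members kept in both, 27 were at least 2-fold higher in mOSN (background 17.1% of all genes) and 24 at least 2-fold lower (background 24.1%). The first share stood above its background and the second equal to it within 1 percentage point.

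Scn4b led the members higher in mOSN, at 954 against 159 (water) and 202 (odor) in the WT MOE libraries, a centred log2 ratio of 2.40. Kcns3 (287 against 67.7 and 44.1), Kcnn2 (174 against 41.6 and 25.9) and Kcnk10 (283 against 62.2 and 67.5) followed, with log2 ratios of 2.35, 2.35 and 2.12. Kcna5 (773 against 185 and 176), Scn9a (701 against 188 and 185) and Hcn2 (156 against 31.2 and 52.0) had ratios between 1.90 and 2.12. In each of these 7 genes both MOE libraries lay below the mOSN value by over 2-fold. Scn11a, a tetrodotoxin-resistant sodium channel, was also in this set but at low values, 6.70 against 1.63 and 0.506.

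Members lower in mOSN included inward rectifiers and leak channels. Kcnj10, the inward rectifier of glia and of several epithelia, was at 1.99 in WT mOSN against 124 (water) and 38.1 (odor) in WT MOE, a centred log2 ratio of -5.03. Kcnj5, a subunit of G protein-gated rectifiers, was at 12.6 against 284 and 444 (-4.79), and Kcnk1, a leak channel, at 10.2 against 215 and 265 (-4.49). Kcnip3, Kcnk2, Kcnd2 and Kcnk5 had ratios of -3.74, -3.12, -2.89 and -2.86. Both WT libraries lay above the mOSN value for all 7. Kcnj13, Kcnj15, Kcnj16, Kcnj1, Kcnj8, Kcne3, Kcnmb1, Kcns1, Kcnt2, Kcnv1, Scn7a and Cacng3 were listed in MOE alone, with Kcnj13, an inward rectifier of epithelia, the highest at 41.6 to 83.6 across the 6 libraries. By class, 7 of 8 sodium channel pore rows and 10 of 15 Kv1 to Kv4 rows had a centred ratio above 0, against 2 of 5 inward rectifiers and 3 of 7 tandem-pore channels.

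**Figure D2:**
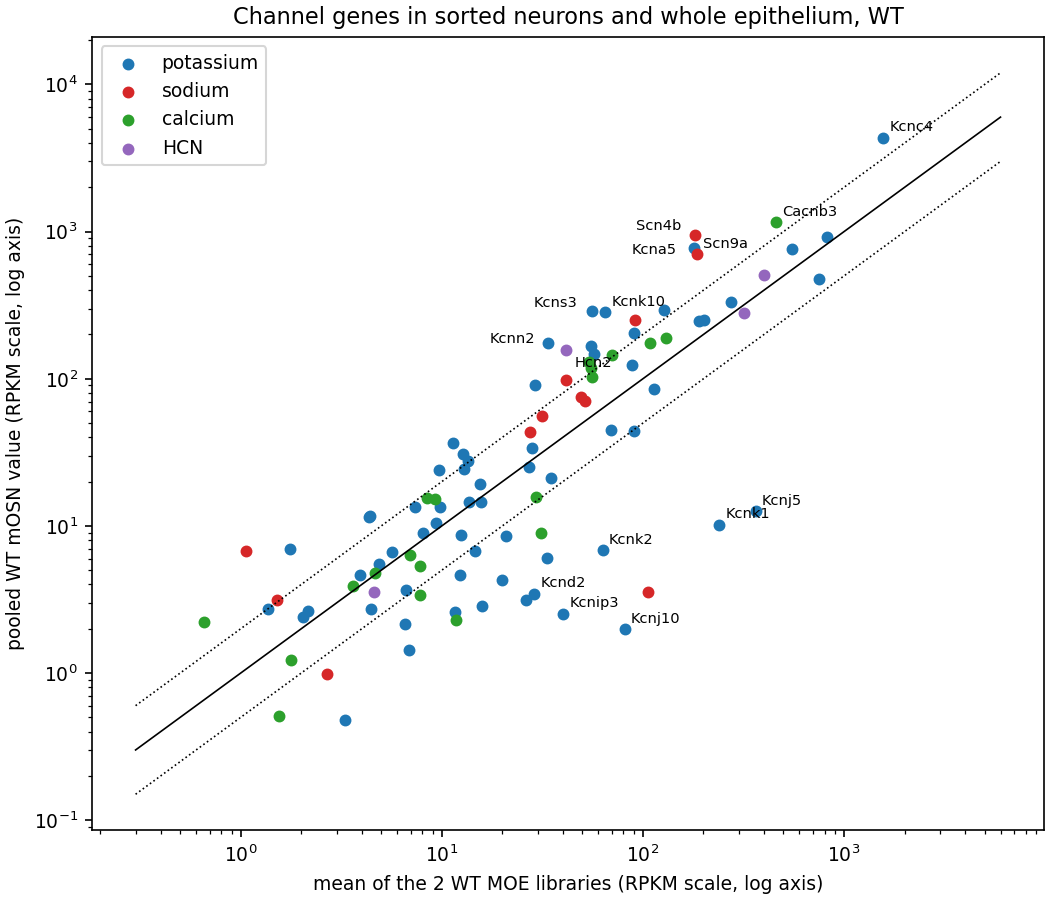
Pooled WT mOSN value against the mean of the WT water and WT odor MOE libraries for the 100 shared members (RPKM scale, both axes log). The solid line marks equal values and the dotted lines 2-fold; Kcnj10, Kcnj5 and Kcnk1 are labelled among those farthest below, and Scn4b, Kcns3 and Kcnn2 farthest above.

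The comparison of KO with WT mOSN asks how loss of the methyltransferase changed the neurons' RNA. Channel genes of low value were higher in KO, and those of high value were lower. Of 117 members, 40 (34.2%) were at least 2-fold higher in KO than in WT (background 17.5% of 14738 genes) and 2 at least 2-fold lower (background 2.84%), with a median log2 ratio of 0.48 against -0.13 over all genes. Of the 40 members with a mean mOSN value under 10, 39 were higher in KO, and of the 28 at 100 or more, 26 were lower. The genes of all kinds had the same split by level: 3253 of 3680 under 10 were higher and 3384 of 3821 at 100 or more were lower. Their medians, 1.01 and -0.40, lay close to the members' 1.13 and -0.43.

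The 8 members with the highest ratios were all under 6 in WT, and 7 of them are given here. Kcne4 and Kcne1, single-pass accessory subunits of Kv channels, stood at 0.480, 2.99 and 6.26 and at 1.39, 9.38 and 10.8 in WT, Het and KO. Kcnj11, the pore of ATP-sensitive potassium channels, was at 4.63, 14.7 and 29.2 and the leak channel Kcnk5 at 3.16, 13.7 and 19.2. Kcnip3, a calcium-binding accessory protein, was at 2.53, 2.76 and 14.6, with Het next to WT, unlike the other named genes. Cacng2, an AMPA receptor regulator, was at 3.38, 10.5 and 17.5, and Cacng1, the gamma subunit of skeletal muscle, at 3.20, 12.2 and 16.1. The log2 ratios of KO to WT for these 7 ran from 2.17 (Cacng1) to 2.79 (Kcne4).

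Kcna6 and Kcnh4 were the 2 members at least 2-fold lower in KO, at 46.1% and 49.0% of WT. Kcnc4 stood just short of that limit at 51.5% of WT (4355, 3364 and 2243), and among other abundant members Scn9a was at 59.3%, Cacna1d at 61.9% and Kcnj2 at 62.3%. After the columns were rescaled to a common median ratio, which moved the median of all genes from -0.13 to 0.0025 and that of the members to 0.58, 0 members remained 2-fold lower.

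A similar split by level was present when the level was taken from the other table, which shares no library with mOSN. Among members with a mean MOE value under 10, 14 of 34 (41.2%) were at least 2-fold higher in KO mOSN, against 43.5% of all genes in that range. Among those not listed in MOE the share was 12 of 15 (80%) against 50.4%. For MOE values between 10 and 100 it was 24.5% against 12.3%, and at 100 or more 10.5% against 4.16%. By class, 9 of 10 inward rectifiers and 8 of 9 tandem-pore channels were higher in KO, with medians of 1.04 and 1.21, while 5 of 10 sodium channel pore rows were higher and the median was -0.043. For comparison, 6308 of 14738 genes of all levels were higher in KO, and 3253 of 3680 with a mean mOSN value under 10.

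Het mOSN differed less from WT: 14 members were at least 2-fold higher (background 6.89%) and 2 lower (background 2.5%), with a median of 0.11 against -0.022 over all genes. Kcne1, Kcnk5, Kcne4, Cacng1, the G protein-gated rectifier Kcnj9 (5.93 in WT and 19.6 in Het), Kcnj11 and Kcnk6 were among the highest of this set, with log2 ratios of 2.39 down to 1.56. Kcna4 (2.88, 0.612 and 7.99) and Kcnrg (44.0, 19.0 and 48.2), whose product holds back assembly of Kv channels, were the 2 lower, and both had KO values above WT. The 3 values stood in the order WT below Het below KO in 48 of 117 members (background 21.9%) and in the reverse order in 28 (background 32.7%). These comparisons share the WT column.

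Marker lists of several other cells were also higher in KO mOSN. From WT to Het to KO the summed value of 5 listed horizontal basal cell markers of 6 went from 11.6 to 20.7 to 81.6, that of all 10 muscle markers from 56.1 to 92.7 to 123, and that of 9 of 9 sustentacular markers from 353 to 419 to 466. Gene by gene, KO was above WT in 5 of 5, 9 of 10 and 6 of 9 of these. Many of these markers were scarce in mOSN, and 3253 of all 3680 genes with a mean under 10 were higher in KO. The sums of the microvillous and brush, endothelial and mesenchymal, macrophage, progenitor, and bone and cartilage lists rose in the same order. In the order named, KO was above WT in 6 of 7, 8 of 8, 6 of 7, 6 of 7 and 4 of 4 of their markers. The ensheathing and Schwann cell list and the brain list had no such order. Of the first, 7 of 8 markers summed to 83.0, 63.3 and 78.5, with 5 of 7 higher in KO. Of the brain markers, 18 of 24 summed to 5187, 5893 and 5033, with 13 of 18 higher in KO. Of 12 immature neuron markers 6 were higher and 6 lower. Of 18 mature neuron markers 17 were lower in KO than in WT, with a median log2 ratio of -0.64, and none of these markers was listed at 0. Over all genes at 100 or more, 3384 of 3821 were lower, with a median of -0.40. The part of other cells in the channel values was not tested, and kit and genotype cannot be told apart.

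**Figure D3:**
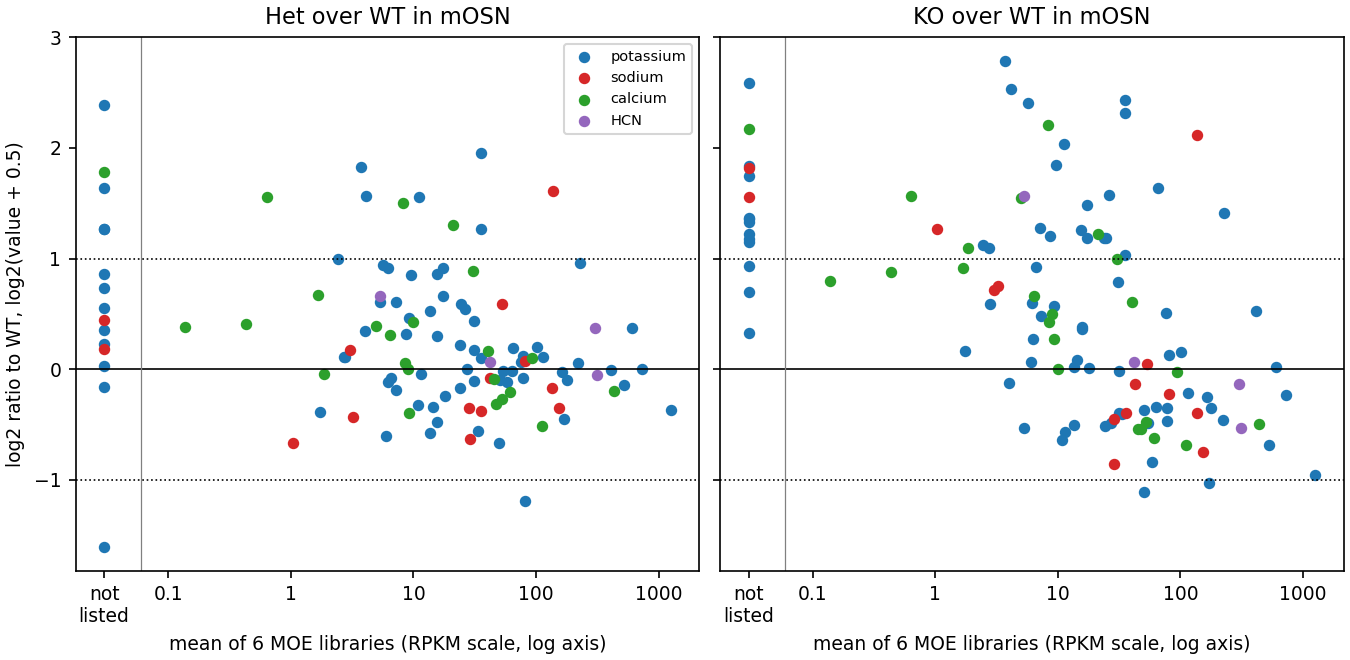
Log2 ratio of Het (left) and KO (right) to WT in mOSN, on values plus 0.5, for each of the 117 members against the mean of the 6 MOE libraries (log axis), with members not listed in MOE at the far left. Dotted lines mark 2-fold; in KO the members of low MOE value lie mostly above 0 and those at 100 or more mostly below.

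In whole epithelium the genotypes and the odor were tested with limma across all genes. Of 112 members, 0 passed an adjusted p of 0.05 in any of the 4 comparisons, where the share of all 14602 genes called was 0% for Het against WT, for KO against WT and for the odor effect in KO, and for odor 0.0137% higher and 0% lower. A count-based fit with limma's voom on the recovered reads also called 0 members. At an unadjusted p under 0.05, Het against WT had 6 members higher (background 2.71%) and 16 lower (background 3.99%), KO against WT 0 higher (1.27%) and 1 lower (0.966%), odor 4 higher (3.01%) and 2 lower (1.86%), and the odor effect in KO against that of WT and Het 5 higher (3.75%) and 2 lower (3.36%). The design leaves 2 residual degrees of freedom (1 for the last comparison), and separate animals are not stated for the libraries. The p-values therefore reflect the spread among these 6 libraries alone, which may be technical.

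In Het against WT the channel genes of the sensory neurons were at lower values and those scarce in the neurons at higher values on average, with 0 passing the adjusted test. Kcnc4 was at 1461 and 1676 (WT, water then odor), 709 and 564 (Het) and 1528 and 1628 (KO). Both Het libraries lay below all 4 others, and the log2 difference from WT was -1.31 ± 0.22 (SE, adjusted p = 0.706). Kcng1 was at 206 and 341 (WT), 78.5 and 115 (Het) and 186 and 395 (KO), again with Het below the rest (-1.48 ± 0.20). For Scn4b the values were 159 and 202 (WT), 80.3 and 55.2 (Het) and 174 and 146 (KO), a log2 difference of -1.42 ± 0.26. Kcnmb3 was at 677 and 818 (WT), 363 and 192 (Het) and 682 and 896 (KO), a log2 difference of -1.49 ± 0.35. Each of the last 3 had the same adjusted p of 0.706 as Kcnc4 in limma's fit.

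Every one of the 28 members with a mean of at least 100 in mOSN was lower in Het than in WT MOE on average, with a median log2 difference of -0.66. Over all 3799 genes of that mOSN level 2298 were lower, and the median was -0.093. The 17 mature neuron markers listed in MOE were all lower in Het as well, with a median of -1.06, 0 called after adjustment and summed values of 28229 and 20838 (WT), 11926 and 7171 (Het) and 23498 and 32164 (KO). In bulk tissue, fewer cells of a type and less RNA per cell cannot be told apart, and the part of the neuron content in the channel values was not tested. The list of other olfactory transduction and excitability genes shares Adcy3, Ano2, Cnga2, Cnga4, Cngb1 and Gnal with the mature neuron markers. The counts therefore overlap. Of its 35 genes in MOE, 22 were lower in Het and 0 were called. Those at a difference of 2-fold or more at an unadjusted p under 0.05 were Cnga4 (-1.68 ± 0.27), Gnal (-1.25 ± 0.31), Cngb1 (-1.20 ± 0.24), Ano2 (-1.06 ± 0.31) and Adcy3 (-1.03 ± 0.23), parts of the odor transduction cascade, and in the other direction Atp2b2 (2.25 ± 0.78), a plasma membrane calcium pump.

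Of the 29 members under 10 in mOSN, 26 were higher in Het than in WT MOE, with a median of 0.79 against 0.22 for all genes of that level. Kcnj3, a G protein-gated rectifier, was at 17.3 and 7.27 (WT), 36.5 and 28.9 (Het) and 8.47 and 10.1 (KO), a log2 difference of 1.49 ± 0.44. Kcnf1, a silent subunit, was at 21.1 and 8.01 (WT), 32.7 and 60.3 (Het) and 13.8 and 11.5 (KO), a log2 difference of 1.73 ± 0.55, and Het was above the other 4 libraries in both. Kcnb2 (1.44 ± 0.45 for the row of the lower MOE level) and Scn2b (1.99 ± 0.62) were, like these, among the 5 of smallest p in this direction, and all 4 had an adjusted p of 0.706 in limma's fit. The other Kcnb2 row had log2 ratios of Het to WT of only 0.085 with water and 0.54 with odor. Cacng5 and Cacng3, both AMPA receptor regulators, had log2 differences of 3.04 ± 1.39 and 2.56 ± 0.99 with all 6 libraries. With each library left out in turn, these ran from 0.366 to 5.72 and from 0.653 to 4.47. The highest values, 5.72 and 4.47, came without the WT water library. That fit leaves WT odor as the only WT library, and WT is assumed to vary like the other groups. Without the WT odor library, the median over members turned from 0.14 to -0.30.

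KO against WT MOE gave a median of -0.052 over the members, against -0.0083 over all genes, with 62 of 112 lower. Single libraries turned this median, to 0.13 without WT water and 0.11 without KO water (43 of 112 lower in each), and it was -0.27 without KO odor and -0.16 without WT odor. The smallest p was that of Hcn3, at 5.48 and 3.73 (WT), 8.59 and 11.5 (Het) and 0.838 and 1.85 (KO), with an unadjusted p of 0.0291 and an adjusted p of 1.00 by limma, and its KO values were below those of the other genotypes. Kcnk1 was at 215 and 265 (WT), 219.8 and 315.5 (Het) and 169 and 180.0 (KO), a log2 difference of -0.45 ± 0.19. Kcnk5 was the member of smallest p in the other direction, at 17.5 and 34.8 in WT and 34.8 and 41.7 in KO (0.61 ± 0.29), where the WT odor and KO water libraries held the same value to 3 digits. The 28 members highest in mOSN had a median of 0.050 here, with 17 of 28 higher in KO, whereas 26 of the 28 were lower in KO in sorted neurons. The tables differ in kit as well as in tissue, and the difference between the contrasts was not tested.

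Odor against water asks which genes respond within 60 min of odor exposure. Kcng1 was the member of smallest p: it went from 206 to 341 (WT), from 78.5 to 115 (Het) and from 186 to 395 (KO), higher with odor in 3 of 3 genotypes (0.79 ± 0.16, limma adjusted p = 0.882). Kcne4 (1.36 ± 0.50) and Kcns1 (0.70 ± 0.28) were also among the 5 of smallest p in this direction. One Kcnh8 row went the other way in 3 of 3 genotypes, from 141 to 85.1, from 124 to 56.5 and from 118 to 82.4 (-0.79 ± 0.18), while the other Kcnh8 row, from 77.5 to 61.2, from 40.5 to 55.1 and from 55.4 to 59.3, did not. All of these had an adjusted p of 0.882 in limma's fit. The median over members was -0.035, against 0.00073 over all genes, and it turned to 0.17 without either WT library and 0.036 without either Het library and was -0.20 without either KO library.

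Some members with a mean under 20 in sorted neurons were lower with odor in WT and higher with odor in KO, with 1 library on each side of every step and 0 of 112 members called in the test of the odor effect in KO. Cacna1i, a T-type pore, went from 7.01 to 0.267 (WT, 136 and 5 recovered reads), from 8.43 to 10.4 (Het) and from 0.552 to 3.28 (KO). Kcnd3 went from 28.7 to 2.98 (WT), from 24.2 to 25.9 (Het) and from 3.53 to 7.92 (KO). Cacng5 went from 22.8 to 0.800 in WT, 38.7 to 51.9 in Het and 2.24 to 10.2 in KO. For these genes the WT odor and KO water libraries held the lowest values of the 6, both Het libraries and WT water the highest, and KO odor lay between. Kcnc2 had the same order of libraries, except that KO water was below WT odor, at 11.7 to 1.43 (WT), 12.8 to 11.8 (Het) and 0.205 to 5.07 (KO). Kcnh5, an ether-a-go-go channel, went from 22.5 to 2.42 (WT), 31.2 to 22.4 (Het) and 3.45 to 22.4 (KO), and Cacng2 from 15.2 to 0.357, 8.79 to 19.3 and 2.31 to 3.46. These 6 examples were chosen after their values were seen.

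Counted over members, 28 of 112 (25%) were at least 2-fold lower in WT odor than in WT water (background 7.09%) and 6 higher (background 5.22%). In Het 5 were lower (background 6.29%) and 6 higher (background 4.26%), and in KO 4 were lower (background 4.1%) and 15 higher (background 5.4%). The same libraries appear in the genotype pairs: KO over WT had 27 members 2-fold lower and 3 higher with water (backgrounds 5.75% and 3.86%) but 2 lower and 17 higher with odor (backgrounds 4.51% and 6.23%), and Het over WT had 33 higher and 16 lower with odor (backgrounds 7.72% and 7.05%) but 7 and 7 with water (backgrounds 4.31% and 3.86%). These pairs hold 1 library on each side and share libraries, so they compare libraries and not conditions. By mOSN level, 16 of the 29 members under 10 (55.2%) were 2-fold lower in WT odor than in WT water, against 344 of 2869 genes of that level, and 0 of the 28 members at 100 or more. A further test set the odor effect of KO against a single odor effect fitted to WT and Het together. WT and Het need not share an effect. Odor over water had log2 ratios of -2.97 (WT) and -0.47 (Het) for Kcnh5 and -2.66 and -0.11 for Kcnc2. The ratios were closer for Kcnn2 (-0.67 and -0.60), and lower in Het for Kcns3 (-0.61 and -1.42) and Kcna2 (-0.29 and -0.78). Where they differ, the estimate is not a difference from either genotype alone. In this test Kcnh5 (4.26 ± 1.12, limma adjusted p = 0.512) and Kcnc2 (4.37 ± 1.26, limma adjusted p = 0.563) were among the 5 of smallest p. So were Kcnn2 (1.76 ± 0.48), Kcns3 (1.89 ± 0.51) and Kcna2 (1.05 ± 0.37), and the median over members was 0.32. In the other direction Kcnj8, the vascular pore of ATP-sensitive channels (-2.52 ± 0.88), and Kcnk12 (-1.74 ± 0.61) had the smallest p. None of the 112 passed after adjustment.

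Brain markers, listed for this purpose after the channel values had been seen, included genes with the same order of libraries. Gad1, the GABA-synthesizing enzyme, was at 47.6 and 1.47 (WT, water then odor), 71.6 and 85.0 (Het) and 3.22 and 24.2 (KO). Slc17a7, the vesicular glutamate transporter of cortical and mitral cells, was at 37.9 and 1.67, at 69.1 and 179.9 and at 4.33 and 34.0, and Gfap, the astrocyte filament, at 98.2 and 2.99, at 104 and 246 and at 17.0 and 86.5. Over the 19 of 24 brain markers listed in MOE, 17 were lower in WT odor than in WT water, 11 of them by 2-fold or more, and none was at 0. In KO water against WT water 17 of 19 were lower, in Het odor against WT odor 17 of 19 were higher, and in KO odor against KO water 17 of 19 were higher. Their summed values ran from 2650 (KO water) to 4153 (Het odor), since Calb2, Slc17a6, Cdhr1 and Aqp4, which are not restricted to brain, make up most of the sum. Of the 8 ensheathing and Schwann cell markers, 7 were lower in WT odor than in WT water (4 by 2-fold or more, median -1.05), 6 were lower in KO water than in WT water (median -0.97), and 7 were higher in Het odor than in WT odor (median 0.75), while in KO odor against KO water 3 were higher and 5 lower. Some lists ran the other way in WT odor against WT water, with 7 of 9 sustentacular markers (median 0.79) and 6 of 6 horizontal basal cell markers (median 0.90) higher. Of macrophage markers 8 of 9 were higher, and of microvillous and brush cell markers 8 of 9. Other lists were mostly lower: 11 of 12 immature neuron markers (median -0.29), 14 of 17 mature neuron markers (median -0.23), 7 of 10 progenitor markers and 5 of 7 muscle markers. The part of brain, olfactory bulb or other cells in the channel values was not tested.

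**Figure D4:**
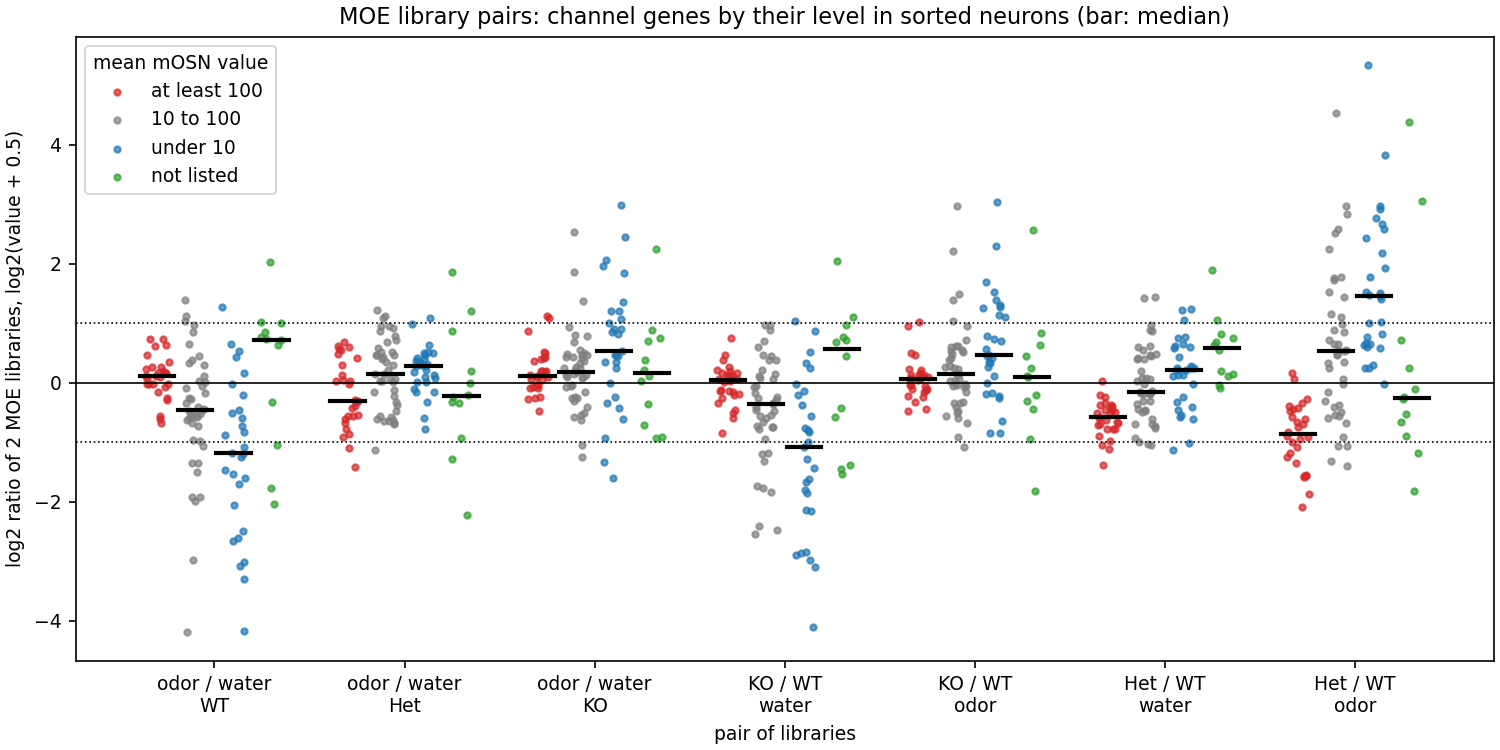
Log2 ratio between 2 MOE libraries, on values plus 0.5, for each member in 7 pairs, coloured by mean mOSN value, with the median of each set as a bar and 2-fold as dotted lines. Members under 10 in mOSN (blue) lie mostly below 0 in WT odor over water and KO over WT with water, and above 0 in Het over WT with odor; members at 100 or more (red) lie mostly below 0 in both Het pairs, 27 of 28 with water and 26 of 28 with odor.

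**Figure D5:**
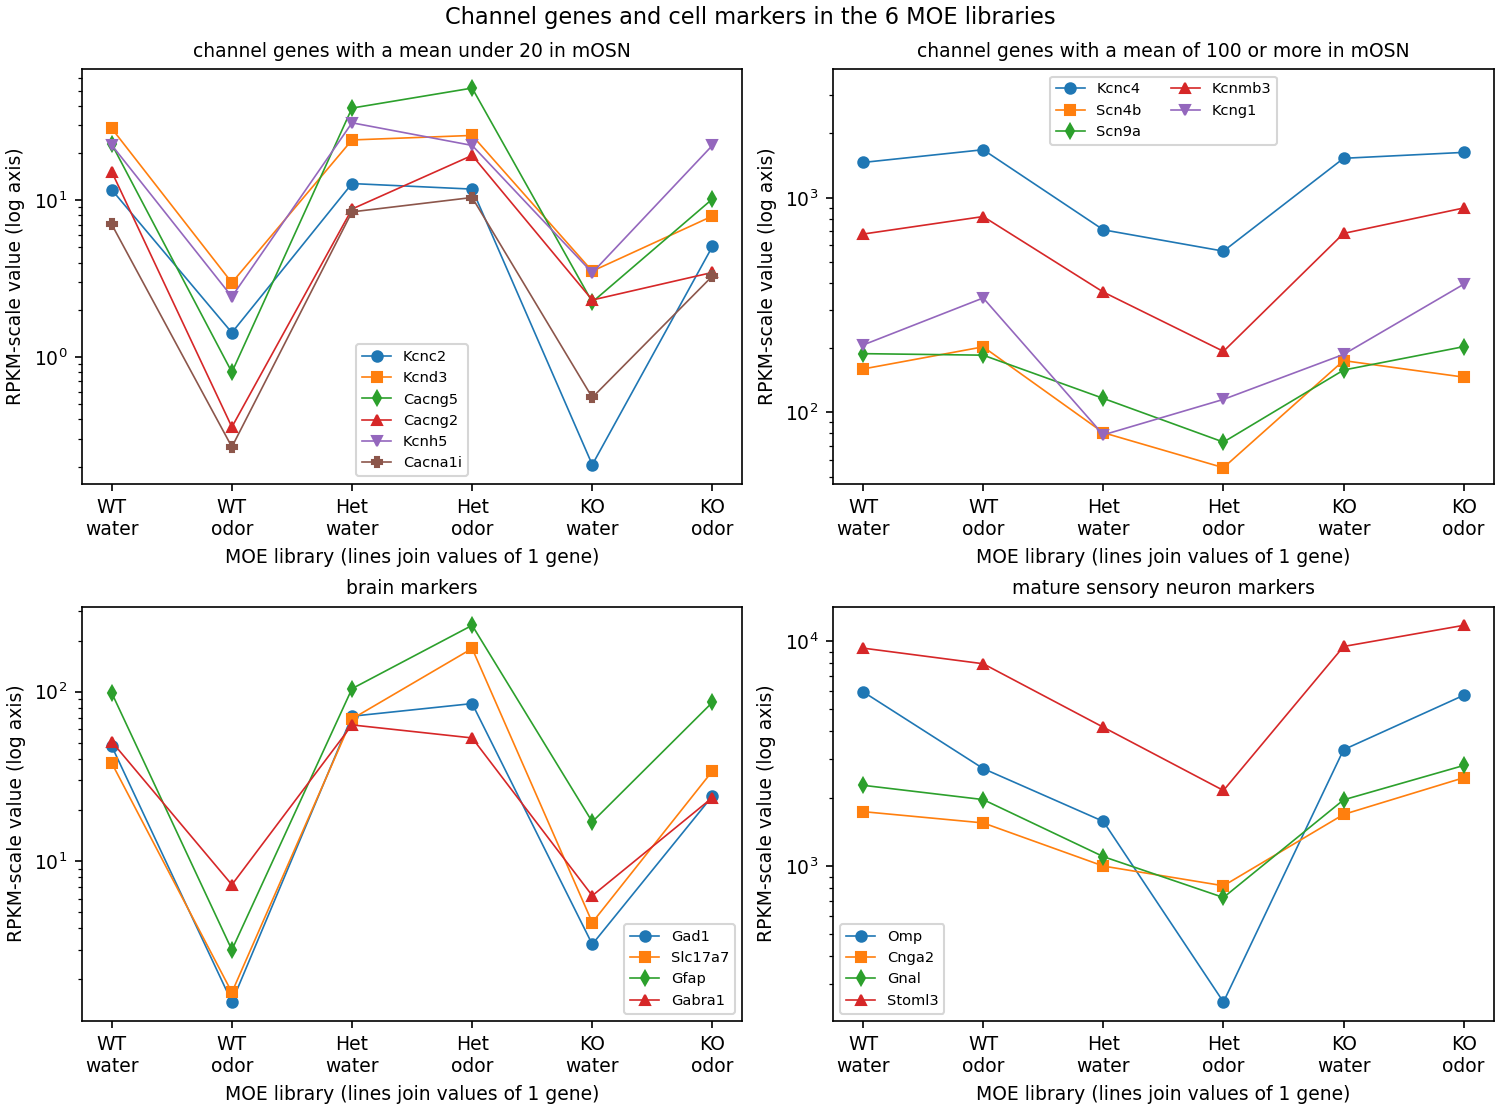
Values in each of the 6 MOE libraries (RPKM scale, log axes), 1 line per gene and 1 library per point, for 6 channel genes with a mean under 20 in mOSN, 5 with a mean of 100 or more, 4 brain markers and 4 mature neuron markers. The channel genes of low mOSN mean and the brain markers are lowest in WT odor and KO water; the others are lowest in a Het library.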

How the data were processed

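RNA-seq tables for 12 of the 33 samples were used: 6 mOSN libraries in 3 pooled columns and 6 MOE libraries, 1 per genotype and treatment. The other 21 samples are not analysed here. The deposited values are RPKM by the authors' naming; the formula is not given in the sources used here. The submitters' processing notes name STAR 2.3.0, Bowtie2 2.1, featureCounts, Picard 1.64 and DESeq and the builds mm9 and NCBIM37, with no roles or order. Whole reads were recovered for 100% of 14613 MOE genes (relative tolerance 1e-05, unless all 6 counts of a gene share a divisor). The mOSN table has 14744 genes with values; its depth is unknown, and how libraries were pooled is not stated.

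Values were taken as log2(value + 0.5) for genes that reached 0.5 in 2 or more columns, so that fold changes of low genes are understated. MOE comparisons used limma 3.58.1 in R 4.3.3 (two-sided, variance trend on, Benjamini-Hochberg adjustment over all 14602 genes), with genotype (for odor) or treatment (for genotype) as a block; the odor effect in KO was an interaction term. The script was tested on simulated data. The limma fit planned for mOSN could not be made on pooled columns, so mOSN values were compared at 2-fold, with Python 3.11.15, pandas 2.3.3 and numpy 2.4.6. Named members are the highest up to 5 per channel class in mOSN where they are abundant, the up to 5 of smallest p per direction in each MOE comparison, and the up to 8 of largest fold in the mOSN comparisons. Some members that the rule names are counted but not reported here by name. The members, the gene lists and the comparisons were chosen with earlier results of these data known. Alternatives covered the pseudocount (0.1 and 1), the filter, rescaling, quantile normalization, the trend, the blocks, a 1.5-fold limit and each library left out. A voom fit on recovered reads was added after the data were seen.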

Additional observations from a re-analysis of the deposited data

How the results depend on the processing

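No paired analysis was possible because no replicate numbers pair libraries: the mOSN columns are pooled per genotype and each MOE group holds 1 library. The MOE fits did match libraries by genotype (for odor) or treatment (for genotype), and without those blocks 0 members were called and the medians were the same. In mOSN, 0 members were at least 2-fold lower in KO after median-ratio rescaling and 10 at a limit of 1.5-fold, against 2; that rescaling moved the median of all genes to 0.0025 and that of the members to 0.58. In Het mOSN, a 1.5-fold limit gave 31 members higher and 6 lower, against 14 and 2. In MOE, leaving out each library in turn gave a median over members of -0.30 to 0.16 for Het against WT. The lowest came without WT odor, and the cause was not tested. Those medians ran from -0.27 to 0.13 for KO against WT and from -0.20 to 0.17 for odor, with a change of sign in each. The number of members called for Het against WT also moved without WT water, in a fit that leaves 1 WT library. The other 134 alternative values of the main counts and medians stayed within 1.5 times the count or within the spread between library pairs. Among these 134 are the medians for KO against WT and for odor that changed sign, since that spread is wide enough to hold such a change. Counts of members called that were 0 in both settings are also among them. No member named by its p in a MOE fit changed sign, and the signs of single mOSN ratios were not examined under the alternatives. Leaving out a library leaves no residual degree of freedom for the odor effect in KO, so that test has no such values. Depth limits the scarce members most: Cacna1i rested on 5 recovered reads in WT odor and Kcnc2 on 1 in KO water, while no depth is known for mOSN.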

Other observations

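The members not listed in one table can be set beside the other. The 15 listed in mOSN alone were all at low values there: the highest mean over the 3 columns was that of the inward rectifier Kcnj4, at 11.8, 17.5 and 22.9 in WT, Het and KO, followed by Kcnj9 at 5.93, 19.6 and 22.5 and Kcna7 at 10.8, 18.3 and 17.9. Genes best known from other excitable tissue were among them, at similar values: Scn4a, the sodium channel of skeletal muscle, at 4.64, 6.47 and 17.6, and Scn10a, of pain-sensing neurons, at 5.35, 6.14 and 16.7. All 15 had KO above WT, as did 1111 of 1374 genes of all kinds not listed in MOE. In MOE alone, Kcne3, an accessory subunit of epithelial potassium channels, was at 6.54 and 12.3 (WT, water then odor), 25.6 and 5.12 (Het) and 28.4 and 22.2 (KO). Both KO values lay above both WT values (log2 difference 1.43 ± 0.73, not called after adjustment). Het with water lay between the KO values, and Het with odor below every other library. Treatment did not sort the values, which were higher with odor in WT and lower in Het and KO.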
